A study of Drosophila melanogaster with 31 samples.

Results

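*Rfx* and *fd3F* encode transcription factors that act in ciliogenesis, and both were followed here through every probe set of an Affymetrix *Drosophila* Genome 2.0 array whose platform symbol is *Rfx* or *fd3F*. These 2 of the 11982 genes named on the array had 3 such probe sets among the 18769 that were not controls: 1628783_at for *Rfx* on chromosome arm 3R, and 1639080_at and 1639841_at for *fd3F* on chromosome X. The samples were cells sorted from dissociated *Drosophila* embryos that carried *ato*GFP, in which a fragment upstream of the proneural gene *atonal* (*ato*) drives GFP. The *ato* mutant groups (labelled atoGFP.7;ato(mutant);w118) were GFP+ cells (4 arrays) and GFP- cells (4 arrays) at t1, 5.75 to 6.75 h after egg laying. The groups wild type for *ato* (labelled atoGFP.7;w118) were GFP+ cells at t1, at t2 (6.75 to 7.75 h) and at t3 (7.75 to 8.75 h), with 4 arrays each, and GFP- cells at t1 and t2 with 4 arrays each and at t3 with 3 arrays. All groups thus carried the same single reporter line. In wild type its GFP marks mainly chordotonal (Ch) precursors and their progeny, and also the developing larval eye. In the *ato* mutant, the study reports, GFP+ cells mostly fail to be specified as Ch precursors and stay ectodermal. A typical mutant GFP+ sample held 15000 to 75000 cells, against 300000 in wild-type GFP+ samples. For GFP- samples the figures were 500000 to 1000000 cells in the mutant and 1000000 in wild type. On 1 wild-type GFP- t2 array (replicate 4) the title and the source text disagree on the sorted fraction, and the title was followed.

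Ch organs are stretch receptors and the fly's hearing organs, and each of their neurons ends in a cilium. In flies only a few cell types build cilia, chiefly type I sensory neurons and sperm. Proteins of the RFX family bind X box motifs upstream of cilium genes, and fly *Rfx* is needed for cilia on both Ch and external sensory neurons. *fd3F* is a forkhead factor expressed in Ch neurons, where it acts on genes for the specialised, motile part of the Ch cilium. Cilia are built by intraflagellar transport (IFT), in which the IFT-B and IFT-A complexes carry cargo out along the axoneme and back.

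The study tested enhancer fragments of both genes, and the designed oligos are shown because they mark the regulatory DNA on which the expression question bears. The first is the top strand of a gel retardation probe from *Rfx*, with the E box, the motif bound by basic helix-loop-helix proteins such as Atonal (searched as CANNTG on both strands), in capitals. The remaining lines are the PCR primers, 5′ to 3′, of adjoining *Rfx* fragments A and B and of the *fd3F* fragment. Capitals in the A and B primers mark the 14 bases that the reverse primer of A and the forward primer of B share on opposite strands.
Rfx EATO1 gel probe: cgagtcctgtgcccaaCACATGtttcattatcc
Rfx enhancer A forward: ctaactagcgattgtgatg
Rfx enhancer A reverse: gcagcgTGACGTTTTCTTTC
Rfx enhancer B forward: aggccaGAAAGAAAACGTCA
Rfx enhancer B reverse: tcatttgaatgccgtttg
fd3F enhancer forward: ggccacaatgaaagtg
fd3F enhancer reverse: gcactgcgctagtcag
The probe held 1 E box, CACATG, beginning at base 17 of 33, counted from its 5′ end. All 3 gel probes of the study's primer list held an E box, and 1 of the 6 enhancer primers did. No genome was used here, so these oligos carry no coordinates, and a match to the motif is a description of the letters.

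Levels are the deposited RMA values (a probe-level summary normalised across arrays) on the log2 scale, on which 1 unit is a doubling. Groups were compared by limma over all 18769 probe sets. A difference was called when it was at least 1.5-fold with a Benjamini-Hochberg adjusted p of at most 0.01. *ato* itself was measured first. Its probe set averaged 11.54 ± 0.33 in mutant GFP+ cells and 7.32 ± 0.09 in mutant GFP- cells (SD, n = 4 each). In wild-type GFP+ cells it averaged 12.31 ± 0.10 at t1, 12.49 ± 0.14 at t2 and 8.10 ± 0.35 at t3 (SD, n = 4 each). In wild-type GFP- cells it averaged 8.68 ± 0.11 at t1, 8.69 ± 0.17 at t2 (SD, n = 4 each) and 6.41 ± 0.49 at t3 (SD, n = 3). *ato* transcript was therefore higher in GFP+ than in GFP- cells in both genotypes and at every time. It was 1.71-fold lower in mutant than in wild-type GFP+ cells (limma adjusted p = 6.1e-04). Since *ato* transcript was still abundant there, this level does not check the genotype, and the place of the lesion relative to the probes was not given in the sources used here.

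*Rfx* was 10.0-fold higher in GFP+ than in GFP- cells at t1 in wild type. Its level was 7.74, 7.93, 7.57 and 8.06 in the 4 GFP+ samples, against 4.26, 4.57, 4.44 and 4.73 in the 4 GFP- samples. The groups were far from overlapping, and the difference of 3.33 (log2, 95% interval 2.89 to 3.77) passed the test with a limma adjusted p of 2.5e-13. It ranked 13th from the top of all 18769 probe sets, of which 2.00% were called higher and 3.61% lower. At t2 *Rfx* was 7.44, 7.44, 8.28 and 7.99 in GFP+ cells, against 5.05, 4.80, 4.85 and 4.53 in GFP- cells. This was 7.90-fold higher in GFP+ cells (log2 2.98, 95% interval 2.54 to 3.42, limma adjusted p = 2.6e-12), beside 2.54% of probe sets called higher and 4.20% lower. At t3 it was 8.38, 8.57, 7.36 and 8.56 in GFP+ cells, against 6.15, 6.25 and 6.24 in GFP- cells. The enrichment at t3 was 4.00-fold (log2 2.00, 95% interval 1.53 to 2.47, limma adjusted p = 3.3e-07), with 2.25% of probe sets called higher and 3.22% lower. The groups did not overlap at any of these times. Here and below, the share of all probe sets whose groups did not overlap was not counted. In a fit to the t3 arrays alone the enrichment at t3 was the same size for both genes and was not called, with a limma adjusted p of 0.024 for *Rfx* and 0.0215 for *fd3F*, and that fit called 1 probe set in all.

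*fd3F* was also higher in GFP+ cells at all 3 times. At t1 the first probe set read 5.85, 6.29, 6.53 and 7.21 in GFP+ cells, against 3.96, 4.24, 3.96 and 4.05 in GFP- cells. The difference was 2.42 (95% interval 1.83 to 3.01), or 5.35-fold, with a limma adjusted p of 1.2e-07. At t2 the values were 6.13, 6.25, 6.82 and 6.62 in GFP+ cells, against 3.83, 3.95, 4.27 and 3.93 in GFP- cells, a 5.50-fold difference (log2 2.46, 95% interval 1.87 to 3.05, limma adjusted p = 7.3e-08). At t3 they were 8.22, 8.84, 6.98 and 8.93 in GFP+ cells, against 4.10, 4.27 and 4.72 in GFP- cells. This 14.7-fold difference (log2 3.88, 95% interval 3.24 to 4.52, limma adjusted p = 6.9e-10) ranked 2nd among all probe sets. Wild-type GFP- values of *fd3F* (3.83 to 4.72) lay around or below the medians of the arrays (4.71 to 4.83), and RMA values of dim probe sets understate a fold change. The same holds for *Rfx* in wild-type GFP- cells at t1 (4.26 to 4.73). These are bulk samples, in which more cells with a transcript and more transcript per cell cannot be told apart.

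**Figure D1:**
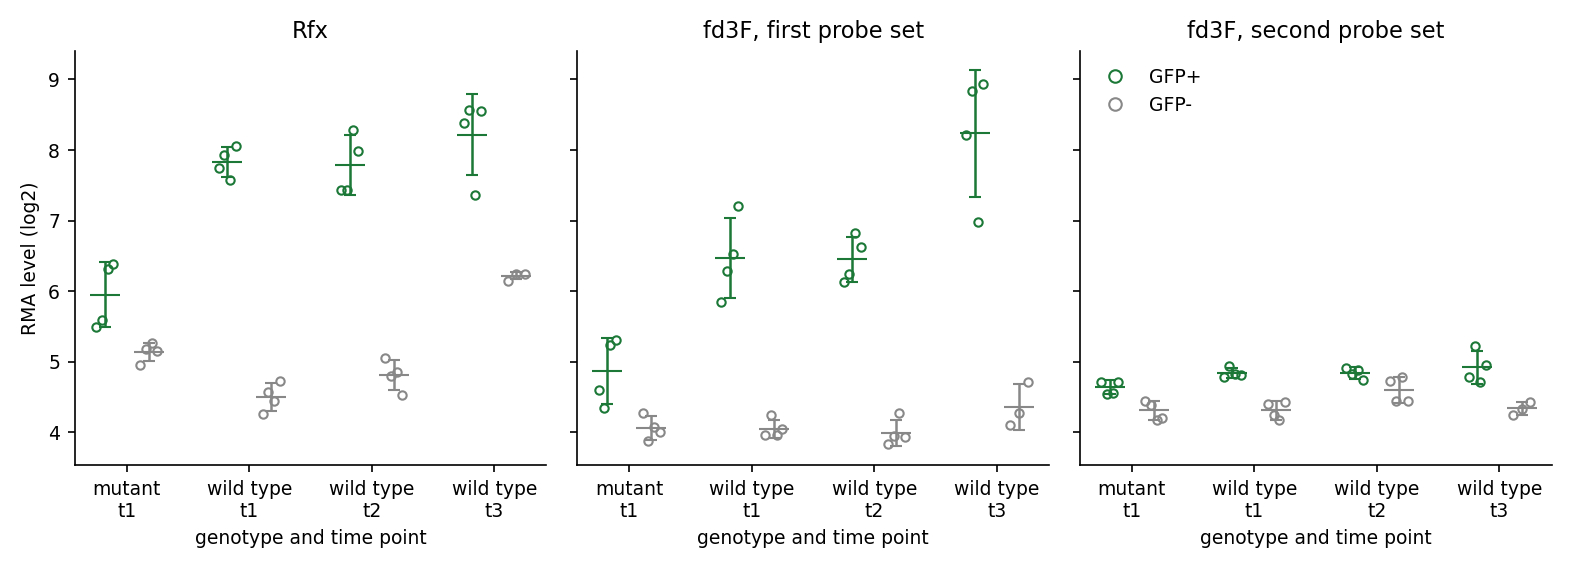
RMA levels (log2) of *Rfx* and of both *fd3F* probe sets on every array, by genotype and time point, with GFP+ cells in green and GFP- cells in grey; circles are arrays, and bars are the mean ± SD (n = 4, or n = 3 for wild-type GFP- cells at t3). *Rfx* in wild-type GFP- cells lies at 6.22 at t3, against 4.50 at t1, while *fd3F* in GFP+ cells lies at 8.24 at t3, against 6.47 at t1.

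The second *fd3F* probe set was dim and nearly flat. Its group means ran between 4.31 and 4.92, with 4.84 ± 0.07 in GFP+ cells and 4.31 ± 0.13 in GFP- cells at t1 (SD, n = 4 each). The enrichment was 0.53 (log2, 95% interval 0.34 to 0.73) at t1, 0.24 (0.04 to 0.44) at t2 and 0.58 (0.37 to 0.79) at t3. None of these was called, since each lay under the fold limit before rounding, although the limma adjusted p was 1.1e-04 at t1 and 1.4e-04 at t3. Leaving out GFP+ replicate 1 gave a called value of 0.63 at t3, as did leaving out replicate 3 of the GFP+ arrays (0.65) or of the GFP- arrays (0.63). The RefSeq gene table gives *fd3F* 2 older locus tags, and the exons that either probe set covers were not given in the sources used here. All *fd3F* values below are of the first probe set.

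**Figure D2:**
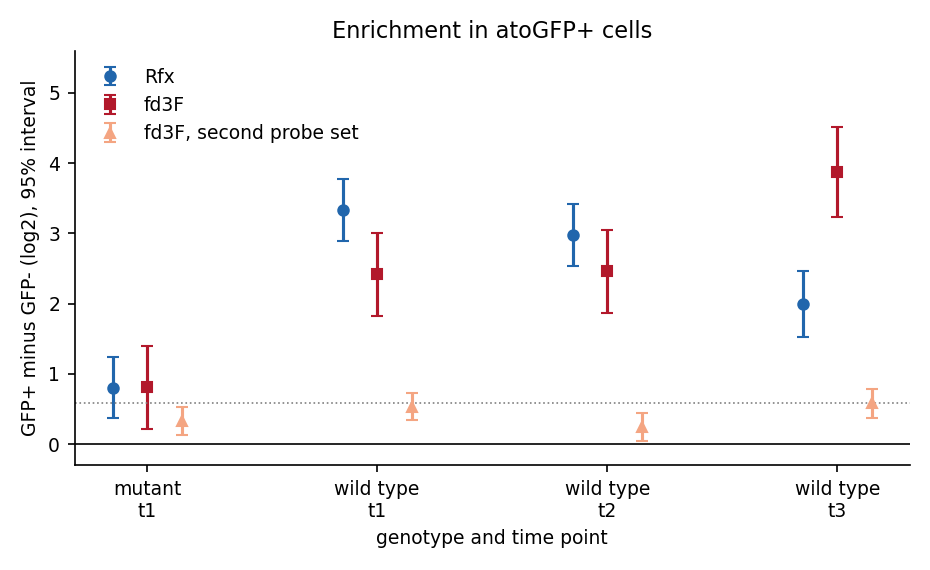
Difference between GFP+ and GFP- cells (log2) with its 95% limma interval for *Rfx*, *fd3F* and the second *fd3F* probe set, in the mutant at t1 and in wild type at t1, t2 and t3; the dotted line is 1.5-fold. *Rfx* lies at 3.33, 2.98 and 2.00 in wild type at t1, t2 and t3, *fd3F* at 2.42, 2.46 and 3.88, and in the mutant they lie at 0.80 and 0.81.

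Over time, *fd3F* rose in GFP+ cells late in the series. It was 3.46-fold higher at t3 than at t2 (log2 1.79, SE 0.29, limma adjusted p = 4.1e-06) and 3.42-fold higher at t3 than at t1 (log2 1.77, SE 0.29, limma adjusted p = 4.8e-06). Between t2 and t1 it differed by -0.02 (95% interval -0.61 to 0.57). The spread was wide. The lowest t3 array (replicate 3, at 6.98) lay below the highest t1 array, at 7.21, so t3 and t1 overlapped, and an exact two-sided permutation test of t3 against t1 gave p = 0.0571 (n = 4 each). The same t3 array had the lowest *Rfx* level of its group, and the highest summed levels of muscle and mesoderm markers (*twi* and *lmd*, with *Mef2* not matched, 11.07, against 9.38 to 9.95 on the other 3) and of haemocyte markers (*srp*, *Pxn* and *Hml*, 10.76, against 9.78 to 9.99). Over the GFP+ groups the muscle and mesoderm sum was 7.24 to 7.96 at t1, 8.21 to 8.61 at t2 and 9.38 to 11.07 at t3. The part of such cells in the *Rfx* and *fd3F* values was not tested. Changes over time were common in GFP+ cells: 22.4% of probe sets were called between t3 and t2, 22.2% between t3 and t1 and 10.7% between t2 and t1, which is the background for these 2 calls of *fd3F*.

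*Rfx* in GFP+ cells was called at none of these steps. It differed by 0.43 between t3 and t2 (95% interval -0.01 to 0.87), by 0.39 between t3 and t1 (-0.05 to 0.83) and by -0.04 between t2 and t1 (-0.48 to 0.40), the last with a sign that changed under array weights. Without the low t3 array, replicate 3, the differences at t3 were 0.71 over t2 and 0.67 over t1, and both were called (limma adjusted p = 0.00211 and 0.00356). Leaving out that array also took the change in *fd3F* to 2.21 over t2 and 2.19 over t1.

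In GFP- cells *Rfx* rose late and *fd3F* was called at no step. *Rfx* was 2.66-fold higher at t3 than at t2 (log2 1.41, SE 0.23, limma adjusted p = 6.6e-06) and 3.29-fold higher than at t1 (log2 1.72, SE 0.23, limma adjusted p = 2.2e-07). The 3 t3 samples lay between 6.15 and 6.25, above all t1 and t2 samples, whose highest was 5.05. Between t2 and t1 *Rfx* differed by 0.31 (95% interval -0.13 to 0.75). *fd3F* differed by 0.37 between t3 and t2 (-0.27 to 1.01), by 0.31 between t3 and t1 (-0.32 to 0.95) and by -0.06 between t2 and t1 (-0.65 to 0.53). In GFP- cells, 20.7% of probe sets were called between t3 and t2, 21.8% between t3 and t1 and 13.2% between t2 and t1. Of 6 measured basal body, transition zone and rootlet genes, 2 also rose in these GFP- samples: *dila*, which encodes a basal body protein, was 3.99-fold higher at t3 than at t1, and *Root*, which encodes rootletin, 5.48-fold higher (limma adjusted p = 5.7e-07 and 2.5e-09). The summed level of 6 Ch markers was 10.02 to 10.33 at t1 and 9.70 to 10.30 at t3 in GFP- cells, but its members moved apart, with *dila* (log2 2.00) and *cato* (0.73) called higher and *ato* (-2.27) called lower. Of 3 neuronal markers, *elav* was higher (log2 1.77), while *nSyb* (-0.12) and *futsch* (-0.17) were not called. *elav* was also 1.65 higher at t3 than at t1 in GFP+ cells. All 4 of another set of proneural genes (*ac*, *sc*, *l(1)sc* and *amos*) were lower in GFP- cells at t3 than at t1, with differences of -3.21 to -1.57. Of these, the study ties *sc* to precursors of external sense organs. The part of these cell types in the *Rfx* level was not tested.

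The change in enrichment between t1 and t3 was called for *Rfx* alone. The enrichment of *Rfx* was 1.33 lower at t3 than at t1 (log2, 95% interval -1.97 to -0.68, limma adjusted p = 0.0063) and was called, where 3.56% of probe sets were called. The call was lost in 9 of the 15 fits that left out 1 array, with differences between -1.45 and -1.04, those arrays being GFP+ t1 replicates 1, 2 and 4, GFP- t1 replicates 1, 2 and 3 and all 3 GFP- t3 arrays. That of *fd3F* was 1.46 higher at t3 (0.59 to 2.33), with a limma adjusted p of 0.0313, and was not called. Without the t3 GFP+ replicate 3 it was 1.88 higher (limma adjusted p = 2.0e-04), and without the t1 GFP+ replicate 4 it was 1.71 higher (limma adjusted p = 0.00809). Between t3 and t2 the differences of -0.98 for *Rfx* (limma adjusted p = 0.0495) and 1.42 for *fd3F* (limma adjusted p = 0.0323) were not called, beside 4.10% of probe sets called. Between t2 and t1 they were -0.35 (95% interval -0.97 to 0.28) and 0.04 (-0.79 to 0.88), beside 0.378% called.

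The difference between the members was itself compared, as the level of *Rfx* minus that of *fd3F* on each array, in 8 comparisons chosen after the values were seen. In GFP+ cells *Rfx* changed by 1.38 less than *fd3F* between t1 and t3 (a value of -1.38) and less by the same measure between t2 and t3 (-1.36). Both gave an exact permutation p of 0.0286, the smallest these group sizes allow, and 0.0457 after adjustment over the 8 comparisons. Between t2 and t1 the value was -0.02 in GFP+ cells (exact p = 0.943). In GFP- cells, where *fd3F* was dim throughout, the differences of 1.40 for t3 over t1, 1.04 for t3 over t2 and 0.37 for t2 over t1 mostly restate the change of *Rfx* and are given as a description. The same holds for mutant over wild-type GFP- cells at t1, with a difference of 0.63 (exact permutation p = 0.0286, or 0.0457 after the same adjustment).

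Both members fell in GFP+ cells of the *ato* mutant, which the study describes as largely not specified as Ch precursors. *Rfx* was 5.50, 5.59, 6.31 and 6.38 in mutant GFP+ cells, against 7.74, 7.93, 7.57 and 8.06 in wild-type GFP+ cells at t1. It was 3.68-fold lower in the mutant (log2 -1.88, 95% interval -2.32 to -1.44, limma adjusted p = 6.8e-08). *fd3F* was 4.60, 4.35, 5.24 and 5.31 in mutant GFP+ cells, against 5.85, 6.29, 6.53 and 7.21 in wild-type GFP+ cells, or 3.02-fold lower in the mutant (log2 -1.60, 95% interval -2.19 to -1.01, limma adjusted p = 1.2e-04). The groups did not overlap for either gene, and 5.26% of probe sets were called in this comparison. The fall in *Rfx* exceeded that in *fd3F* by 0.28 on the log2 scale (a value of -0.28, exact permutation p = 0.4, n = 4 each), a difference within the spread between arrays. Mutant replicates 3 and 4 were higher than 1 and 2 for both genes. They also had higher summed neuronal markers (10.66 and 10.77, against 10.10 and 10.05). Haemocyte sums (7.56 and 7.51, against 7.11 and 7.3) and larval eye sums (12.2 and 12.08, against 12.06 and 12.01) were higher too. Muscle and mesoderm sums were lower (6 and 6.05, against 6.33 and 6.33). Ch marker sums did not split this way, at 12.83, 12.64, 12.69 and 12.43 in replicates 1 to 4. Levels were summed on the linear scale, so *sens* (mutant GFP+ mean 11.65) and *ato* (11.54) far outweigh *cato* (6.77) and *dila* (5.02). The Ch sums therefore do not show whether *cato* or *dila* split. The part of these markers in the split was not tested.

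Within the mutant, the enrichment of *Rfx* was called and that of *fd3F* was not. *Rfx* was 1.75-fold higher in mutant GFP+ than in mutant GFP- cells, whose levels were 4.96, 5.18, 5.27 and 5.16 (log2 0.80, 95% interval 0.37 to 1.24, limma adjusted p = 0.00403). In this comparison 4.65% of probe sets were called higher and 6.12% lower. The *Rfx* call was lost without mutant GFP+ replicate 3 (log2 0.68), mutant GFP+ replicate 4 (0.66) or mutant GFP- replicate 1 (0.74), and under cyclic loess normalisation (0.69). *fd3F* was 1.76-fold higher in mutant GFP+ cells than in mutant GFP- cells, at 4.28, 3.88, 4.07 and 4.01 (log2 0.81, 95% interval 0.22 to 1.40, limma adjusted p = 0.0336), and was not called. The groups did not overlap for either gene, nor did they for the dim second *fd3F* probe set. Relative to wild type, the enrichment was 2.52 lower in the mutant for *Rfx* (a value of -2.52, 95% interval -3.14 to -1.90, limma adjusted p = 2.8e-07) and 1.61 lower for *fd3F* (-1.61, 95% interval -2.44 to -0.77, limma adjusted p = 0.00699), both called, beside 5.42% of probe sets. For *fd3F* that call was lost in 10 of the 16 fits that left out 1 array, with differences between -1.81 and -1.36. Those arrays were mutant GFP+ replicates 1 and 2, mutant GFP- replicates 1, 2 and 3, wild-type GFP+ replicates 3 and 4 and wild-type GFP- replicates 1, 3 and 4.

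In GFP- cells *Rfx* was 0.65 higher in the mutant than in wild type (log2, 95% interval 0.21 to 1.08), with no overlap between groups. Its limma adjusted p of 0.025 did not pass, and 8.15% of probe sets were called. *fd3F* differed there by 0.01 (-0.58 to 0.60).

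Cell type markers also differed between mutant and wild-type GFP+ cells. The summed level of the 6 measured Ch markers (*ato*, *cato*, *sens*, *dila*, *nan* and *iav*) was 12.43 to 12.83 in the mutant, against 13.63 to 13.76 in wild type, and 4 of the 6 were called lower. Larval eye markers summed to 12.01 to 12.20 in the mutant, against 11.29 to 11.54 in wild type. Of these, *toy* was called higher (log2 1.68), and *eya* (0.44), *svp* (-0.09) and *so* (-0.54) were not called, by the brightest probe set of each. Counting any probe set of a gene, 1 of the 4 was called higher and 2 lower. The 2 were *toy* and *svp*, which have 3 probe sets each, so *toy* was called in both directions. Muscle and mesoderm markers summed to 6.0 to 6.33 in the mutant, against 7.24 to 7.96 in wild type, with both *lmd* (log2 -2.27) and *twi* (-0.66) called lower. Haemocyte markers summed to 7.11 to 7.56 in the mutant, against 7.50 to 8.14 in wild type, and 1 of 3, *srp* (-1.0), was called lower. Of the 4 proneural genes *ac*, *sc*, *l(1)sc* and *amos* 0 were called in GFP+ cells, with differences of -0.29 to 0.58. All 4 were lower in mutant than in wild-type GFP- cells. The part of these marker differences, and of the smaller number of sorted cells, in the fall of *Rfx* and *fd3F* was not tested.

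Ordered by group mean, *Rfx* was highest in wild-type GFP+ cells at t3 (8.22), followed by t1 (7.83) and t2 (7.79), whose ranges overlapped. After a gap came wild-type GFP- cells at t3 (6.22) and mutant GFP+ cells (5.95), which overlapped each other. Mutant GFP- cells (5.14), wild-type GFP- cells at t2 (4.81) and at t1 (4.50) closed the order, each overlapping its neighbour. *fd3F* had the same 3 groups on top, at 8.24, 6.47 and 6.45. Below them, mutant GFP+ cells (4.87), wild-type GFP- cells at t3 (4.36), mutant GFP- cells (4.06) and wild-type GFP- cells at t1 (4.05) and t2 (3.99) overlapped from neighbour to neighbour. Wild-type GFP- cells at t3 stood above mutant GFP+ cells for *Rfx* and below them for *fd3F*. Wild-type GFP- cells at t2 and t1 also stood in opposite order for the members, within overlapping ranges.

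**Figure D3:**
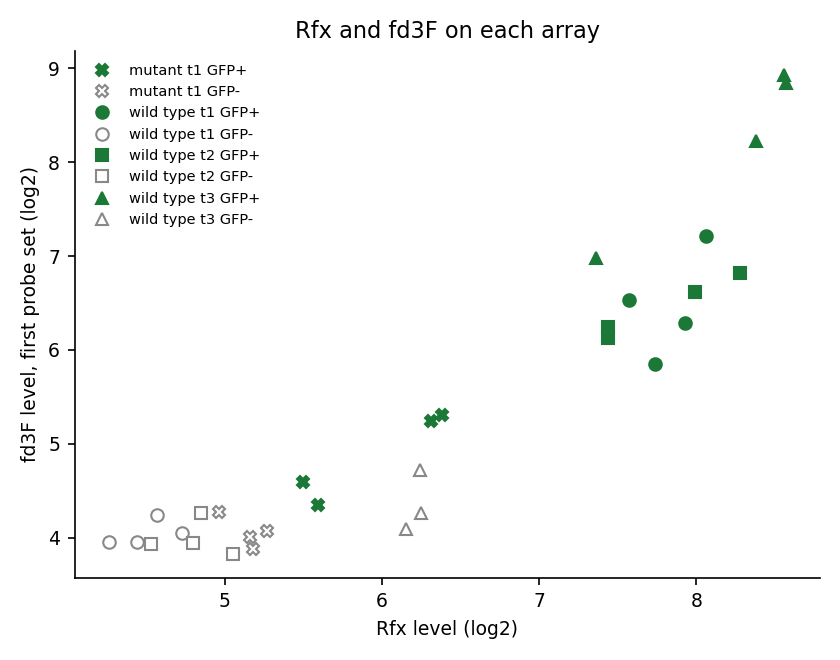
*Rfx* level (log2) against the level of the first *fd3F* probe set (log2) on each of the 31 arrays, with GFP+ arrays filled green, GFP- arrays open grey, and a symbol for each genotype and time point. The 3 wild-type GFP- arrays of t3 lie at 6.15 to 6.25 for *Rfx* and at 4.10 to 4.72 for *fd3F*, to the right of the other GFP- arrays.

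As a measure of likeness, Pearson's correlation of log2 levels was taken over all 31 arrays and over the 16 GFP+ arrays. These arrays fall into 8 groups, so the values describe shared group levels as well as spread within groups. *Rfx* and *fd3F* correlated at 0.924 over the 31 arrays (Spearman 0.909) and at 0.889 over the GFP+ arrays (Spearman 0.882). The gene most like *Rfx* over all arrays was *dila* (0.974), followed by *loco*, a regulator of G protein signalling (0.932), *nrm*, a cell adhesion gene (0.932), *CG5597* (0.926) and *fd3F*. For *fd3F* the closest were *dila* (0.943), *IFT46* of the IFT-B complex (0.934), *Rfx*, *Ccdc114*, a dynein docking factor (0.905), and *CG6980* (0.904). Over the GFP+ arrays *Rfx* was closest to *dila* (0.962), *Jarid2* (0.96), *loco* (0.954), *dve* (0.934) and *insc* (0.929), and *fd3F* to *Wsck* (0.963), *wnd* (0.959), *twy* (0.952), *gukh* (0.951) and *jagn* (0.944). The top 5 lists of the members shared 1 gene, *dila*, over all arrays and 0 over the GFP+ arrays.

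Other genes of the forkhead family, to which *fd3F* belongs, were called in both directions. Of 14 measured, 1 was higher and 4 were lower in GFP+ cells at t1 (median log2 -0.09, against 0.02 over all probe sets, of which 2.00% were higher and 3.61% lower). The gene that was higher was *fd96Cb* (log2 0.61, SE 0.10). *bin*, which acts in visceral mesoderm, was 9.11-fold lower, *CHES-1-like* 5.38-fold lower and *fkh*, a gut and salivary gland regulator, 4.03-fold lower. At t3, 1 was higher and 3 were lower (median 0.03, against 0.01), beside 2.25% and 3.22% of all probe sets. In mutant GFP+ cells against wild type 1 was higher, *FoxK* (log2 0.61), and 3 were lower, led by *bin* (log2 -1.40), beside 2.95% of all probe sets higher and 2.32% lower. Between t3 and t1 in GFP+ cells 4 were higher, led by *CHES-1-like* (log2 3.55), and 3 lower, led by *jumu* (-1.05), where 11.1% of all probe sets were higher and 11.1% lower.

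Proneural and precursor genes, which act early in sensory development, were often enriched. Of 11 measured, 6 were higher and 1 was lower in GFP+ cells at t1 (median 1.06, against 0.02 over all probe sets), and 7 were higher and 0 lower at t3 (median 0.83), again beside 2.00% and 3.61% of all probe sets at t1 and 2.25% and 3.22% at t3. At t1 *cato*, a basic helix-loop-helix gene of sensory precursors, was 17.9-fold higher and *cpo*, an RNA-binding protein gene of the peripheral nervous system, 16-fold higher. At t3 *cato* was 1.22 and *cpo* 1.41 higher in GFP+ cells (log2). Between t3 and t1 in GFP+ cells 8 were lower and 1 was higher, beside 11.1% of all probe sets each way. The 8 included *ato* (log2 -4.22), *l(1)sc* (-2.23) and *cato* (-2.22), while *cpo* was higher (1.47). In the mutant, 5 were lower in GFP+ cells and 0 higher, beside 2.32% and 2.95% of all probe sets, with *cato* at -3.47, *nvy* at -1.16 and *sens*, a zinc finger gene of sensory precursors, at -1.03.

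Cilium genes were called higher in GFP+ cells at t3 in larger numbers than at t1, and the difference in these counts was not tested. The study states that *Rfx* regulates only part of the ciliogenesis genes, and not those of IFT-A. Its preliminary data showed no effect of *fd3F* loss on most of the ciliogenesis genes examined. Over the 5 lists below, 7 of 37 measured genes were higher at t1 and 30 of 37 at t3, beside 2.00% and 2.25% of all probe sets. In the fit to the t3 arrays alone limma called 0 of the 37, and 34 had an unadjusted p under 0.05. Of 10 IFT-B genes, 0 were called at t1 and 10 were higher at t3 (median log2 1.72, against 0.01 over all probe sets). *Ttc26* was 6.90-fold higher in GFP+ cells, *IFT46* 5.12-fold and *IFT20* 4.10-fold. Of 4 IFT-A genes, 3 were higher at t1, led by *Oseg4* (2.76-fold), and 4 at t3, led by *Oseg6* (3.87-fold). Of 6 BBSome genes, whose complex moves membrane cargo in cilia, 0 were called at t1 and 4 were higher at t3, led by *BBS5* (3.17-fold). Of 6 measured basal body, transition zone and rootlet genes, 3 were higher at t1 (*dila*, 11.1-fold; *Root*, 4.08-fold; *Cby*, 1.63-fold) and 6 at t3, where *dila* was 8.25-fold and *Cep290* 6.71-fold higher.

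Genes of the mechanosensory and motile cilium, of the kind *fd3F* acts on, were uneven. Of 11, 1 was higher at t1, the dynein heavy chain gene *Dhc93AB* (2.35-fold), and 6 were higher at t3 (median 0.64, against 0.01). *Ccdc114* was 14.7-fold higher at t3 in GFP+ cells, *Zmynd10*, a dynein assembly factor, 13.5-fold and *Dnali1*, an inner-arm dynein chain, 3.47-fold. The channel genes *nan* (log2 0.34), *iav* (0.18) and *nompC* (0.16), named after their values were seen, were not called at t3. Between t3 and t1 in GFP+ cells, *Ccdc114* was 15.0-fold and *Zmynd10* 14.2-fold higher, and with *Dnali1* 3 of the 11 were called higher. *tilB*, a dynein assembly factor (log2 -0.80), and *Dhc93AB* (-0.69) were called lower at that step. There 11.1% of all probe sets were called higher and 11.1% lower.

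**Figure D4:**
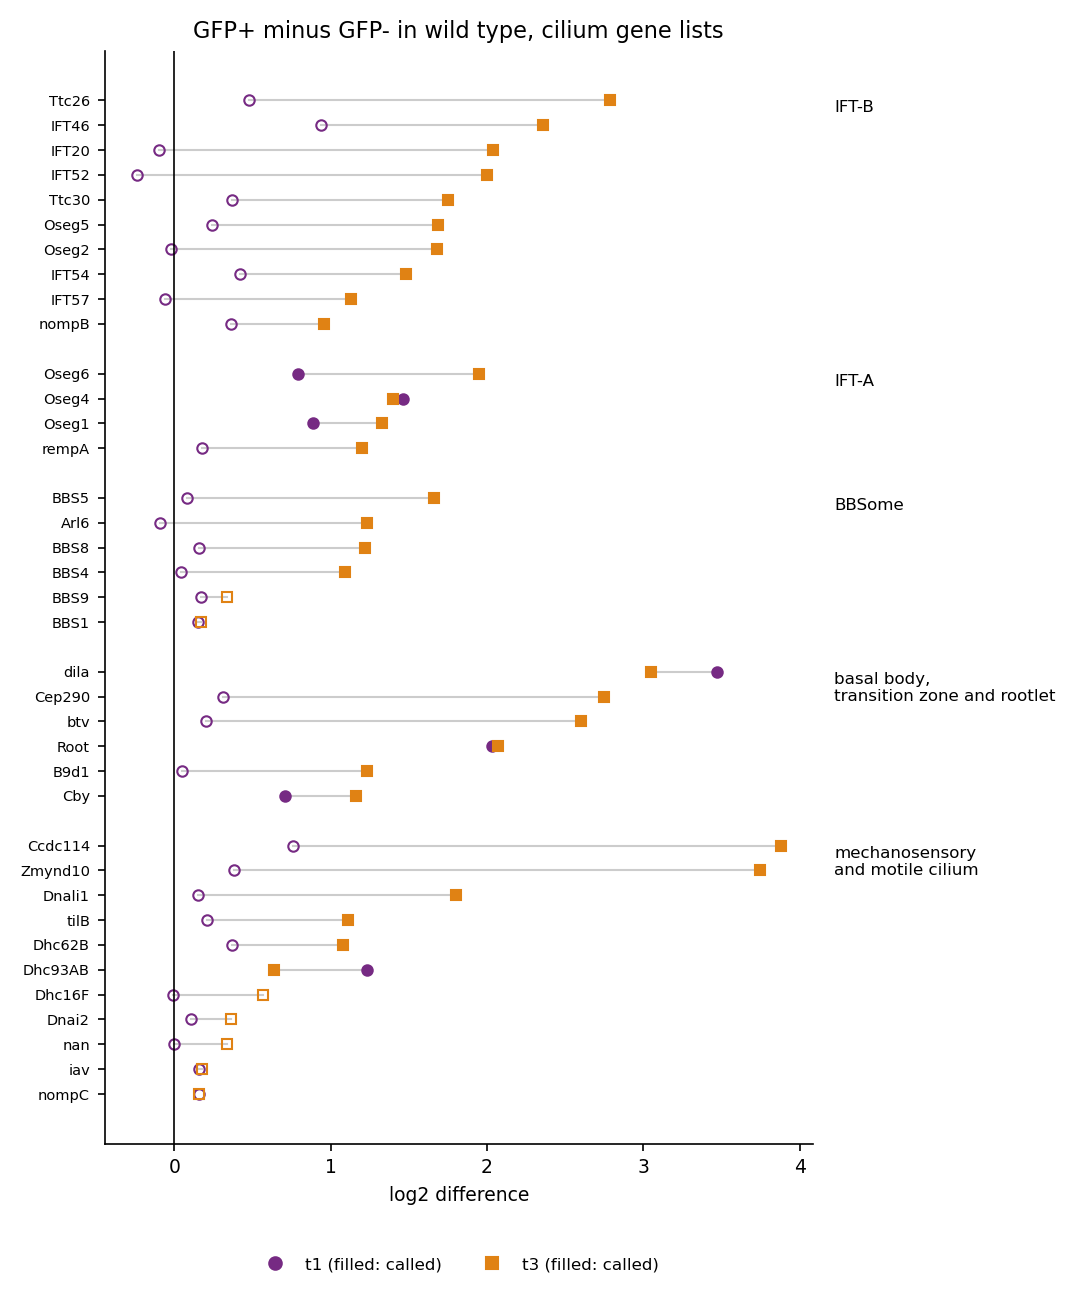
Difference between GFP+ and GFP- cells in wild type (log2) for each measured gene of 5 cilium gene lists, at t1 (violet circles) and at t3 (orange squares); filled symbols passed the test. All 10 IFT-B genes are open at t1 and filled at t3, and *Ccdc114* and *Zmynd10* reach 3.88 and 3.75 at t3.

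At t1, where both members fell in the mutant, 6 of the 37 cilium genes (16.2%) were called between mutant and wild-type GFP+ cells, beside 5.26% of all probe sets, and these were 4 lower and 2 higher. Of the IFT-B genes 1 was lower, *Oseg5* (log2 -0.63), and of the IFT-A genes 1 was higher, *Oseg4* (0.66), which was also 0.63 higher in mutant than in wild-type GFP- cells. Of the BBSome genes 0 were called (medians -0.08 for this list, against -0.01 over all probe sets). Of the basal body, transition zone and rootlet genes 2 were lower, *dila* (-2.49) and *Root* (-1.01). Of the mechanosensory and motile cilium genes 1 was lower, *tilB* (-1.06), and 1 higher, *Dhc93AB* (0.71). *tilB* was also lower in mutant than in wild-type GFP- cells (-1.09), and its enrichment differed between the genotypes by 0.03 (limma adjusted p = 0.965).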

How the data were processed

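The authors normalised the arrays by RMA with quantile normalisation (AffyPLM) and deposited log2 values, 18952 probe sets by 31 arrays. The labels describe one-cycle target labelling and the methods a 2-cycle protocol, and which was used was not settled. The 183 control probe sets were left out. Of the rest, 13647 named 1 gene, 402 several and 4720 none. Group means of the 8 groups were fitted with limma 3.58.1 in R 4.3.3, with moderated tests and Benjamini-Hochberg adjustment over 18769 probe sets. The methods call the arrays independent samples, and each sorting run gave both fractions, but no source ties replicate numbers to runs. Same-numbered GFP+ and GFP- arrays of the mutant deviated together from their group means in all 4 pairs (correlations 0.213 to 0.299). Every wild-type pair at t1 and t3 was positive too. Arrays of unlike number were not compared, so pairing was not settled. The number of arrays limits the precision. A gene with several probe sets was given by the one with the highest mean, and *fd3F* by both. Gene names come from the platform annotation and the current gene table. Named genes were *ato*, the members, the 5 genes most like each, and in each list up to 3 called genes each way. Members and lists were chosen with earlier results of these data known, so lists have counts and medians and no test. Alternatives covered scaling, dim probe sets, array weights, variance model, thresholds, blocks, permutation and each array left out.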

Additional observations from a re-analysis of the deposited data

Results flagged for a closer look

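Each group of 4 arrays was tested for a single far value in *Rfx*, both *fd3F* probe sets and *ato*, 28 tests on shared arrays. Chance passes about 1 in 20, and 1 passed, which is not more than chance would give. It was *Rfx* in wild-type GFP+ cells at t3, whose lowest array (replicate 3, at 7.36) lay apart from the others by 0.843 of the group's range. The enrichment of *Rfx* differed between times, being 1.33 lower at t3 than at t1 (a value of -1.33, limma adjusted p = 0.0063). The enrichment of both genes differed between genotypes at t1, by -2.52 for *Rfx* (limma adjusted p = 2.8e-07) and by -1.61 for *fd3F* (limma adjusted p = 0.00699), lower in the mutant.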

How the results depend on the processing

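All values here are log2 differences unless called counts, p-values are limma adjusted unless called exact, and the cause of a change was not tested. The enrichment of both genes at t1 and t2, the fall of *Rfx* in mutant GFP+ cells and its lower enrichment in the mutant kept their calls in every alternative run. So did *Rfx* for t3 over t2 and t3 over t1 in GFP- cells, and *fd3F* for t3 over t2 in GFP+ cells. Fitting only the groups compared left *Rfx* at 2.00 and *fd3F* at 3.88 at t3, no longer called, with *Rfx* at -1.33 (limma adjusted p = 0.0138) for t3 minus t1. It called *Rfx* at 0.65 between mutant and wild-type GFP- cells and *fd3F* at 0.81 between mutant GFP+ and GFP- cells. Both were also called at an adjusted p limit of 0.05 and had an exact permutation p of 0.0286. That limit also called the t3 minus t2 enrichment differences (-0.98 for *Rfx*, 1.42 for *fd3F*) and the t3 minus t1 difference of *fd3F* (1.46). The exact test did not pass *fd3F* at 1.77 for t3 over t1 in GFP+ cells (exact p = 0.0571).

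Cyclic loess took *Rfx* in mutant GFP+ over GFP- cells to 0.69 (limma adjusted p = 0.0162, not called) and *Rfx* between mutant and wild-type GFP- cells to 0.76 (called). Centring on ribosomal protein genes moved the median of all probe sets for t3 over t1 by up to -0.416. It turned the uncalled *Rfx* t2 over t1 in GFP- cells to -0.01, *fd3F* t3 over t1 in GFP- cells to -0.01, *fd3F* in mutant over wild-type GFP- cells to -0.01 and the second *fd3F* probe set for t3 over t1 in GFP+ cells to -0.27. It took *fd3F* in mutant GFP+ over GFP- cells to 1.02 (called), and lost the calls of *Rfx* for t3 minus t1 (-1.34) and of *fd3F* for mutant minus wild-type enrichment (-1.50). Intensity trend with robust estimates lost the same calls, at -1.33 and -1.61. Array weights turned t2 over t1 in GFP+ cells to 0.01 for *Rfx* and 0.06 for *fd3F*, and called *fd3F* at 1.66 for t3 minus t2, at 1.80 for t3 minus t1 and *Rfx* at 0.69 between mutant and wild-type GFP- cells. A test against 1.5-fold (treat) lost *Rfx* at 0.80 in the mutant and -1.33 for t3 minus t1, and *fd3F* at -1.60 for mutant over wild-type GFP+ cells and -1.61 for mutant minus wild-type enrichment.

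Counts of probe sets called under treat were 374, 444 and 110 for enrichment at t1, t2 and t3, against 1053, 1266 and 1027, and 928 in the mutant, against 2020. In GFP+ cells they were 580 for t2 over t1, 2364 for t3 over t2 and 2479 for t3 over t1, against 2016, 4203 and 4165. In GFP- cells they were 844, 2012 and 2135 for the same steps, against 2475, 3880 and 4093. For differences in enrichment they were 6 for t2 minus t1, 178 for t3 minus t2 and 155 for t3 minus t1, against 71, 770 and 668. For mutant over wild type they were 237 in GFP+ cells, 537 in GFP- cells and 285 for enrichment, against 988, 1530 and 1018. Fitting only the groups compared called 1 at t3, 157 for t2 minus t1 and 439 for t3 minus t1. For t2 minus t1 array weights called 151 and the limit of 0.05 called 135.

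With the replicate number as a block, all 32 comparisons of *Rfx* and *fd3F* kept their call, and the count for t2 minus t1 was 157, against 71. For GFP+ over GFP- cells in the mutant, the blocked values were 0.80 for *Rfx* (limma adjusted p = 0.00166) and 0.81 for *fd3F* (limma adjusted p = 0.0205). Same-numbered GFP+ and GFP- arrays correlated in their deviations in wild type at 0.068 to 0.327 at t1, -0.019 to 0.065 at t2 and 0.037 to 0.558 at t3. Every wild-type pair was thus positive at t1 and t3, as every pair was in the mutant. Arrays of unlike number were not compared, so pairing was not settled in either genotype. The main test used no block.

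With 1 array left out, *Rfx* in the mutant ran between 0.66 and 0.95 and *Rfx* t3 minus t1 between -1.45 and -1.04. In GFP+ cells *Rfx* ran between -0.20 and 0.08 for t2 over t1, 0.31 and 0.71 for t3 over t2 and 0.27 and 0.67 for t3 over t1. *fd3F* ran between -0.22 and 0.23 for t2 over t1 in GFP+ cells, -0.15 and 0.01 for that step in GFP- cells, -0.17 and 0.29 for t2 minus t1, 1.19 and 1.84 for t3 minus t2 and 1.23 and 1.88 for t3 minus t1. It ran between -0.06 and 0.07 for mutant over wild-type GFP- cells and -1.81 and -1.36 for mutant minus wild-type enrichment. The second probe set ran between -0.03 and 0.14 for t3 over t1 in GFP+ cells. Of the 5 genes most like each member, Spearman's correlation kept 3 for *Rfx* and 2 for *fd3F* over 31 arrays and 2 for *Rfx* over GFP+ arrays, and group means kept 3 and 2. The per-array difference between members turned sign only for t2 over t1 in GFP+ cells under cyclic loess (0.06), added after the data were seen. Of 72 calls of named list genes, 30 held in every alternative, and 0 reversed. Dim signal limits what can be said of *fd3F* in GFP- cells. It also bears on *Rfx* in wild-type GFP- cells at t1 (4.26 to 4.73) and on *fd3F* in mutant GFP+ cells (4.35 to 5.31).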
